A study of Mus musculus with 12 samples.

Results

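The 42 genes described here encode ligands and receptors of axon guidance: semaphorins with their plexin and neuropilin receptors, Slits with Robos, netrins with Dcc and Unc5 receptors, and ephrins with Eph receptors. In the deposited ATAC-seq table, the accessible regions (peaks) were taken whose closest transcription start site (TSS) among protein-coding genes on GRCm38 belonged to one of these 42. They were 355 of 42424 distinct peaks, and they fell to 41 of the 42 genes. Slit1 had no peak. A nearest start is a position and no proof that a peak acts on that gene.

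Axon guidance proteins are cues, either secreted and able to act at a distance or fixed to a cell surface, and their receptors, which together tell a growing or migrating cell where to go by changing its cytoskeleton and adhesion. Slits bind Robo receptors and mostly repel, netrins attract through Dcc and repel through Unc5 receptors, semaphorins signal through plexins with or without a neuropilin, and ephrins and Eph receptors, both membrane-bound, signal in both directions between touching cells. Outside the nervous system the same proteins position blood and lymph vessels, shape organs and guide immune cells, and fibroblasts and other stromal cells are among their sources.

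The libraries came from non-endothelial stromal cells (SCs) of mouse lymph nodes, sorted as CD45-CD24-CD31-Pdpn+ cells and treated with a transposase that cuts open chromatin. There were 4 groups of wild-type BALB/c mice: mLN-SPF and pLN-SPF, from gut-draining mesenteric (mLN) and skin-draining peripheral (pLN) lymph nodes of mice aged 7 to 12 weeks kept specific pathogen free (SPF), and mLN-GF and pLN-GF, from the same node types of mice aged 6 to 10 weeks kept germ-free (GF). The comparison of nodes asks what the draining site does to chromatin, and that of housing what microbial colonization does. By the methods of the study, SPF colonies (among them a CD90.1 line on BALB/c, not stated to be the source of these libraries) were bred at one institute and GF mice derived at another, so housing cannot be told apart from colony and age, nor from line if that line was used. The sort held several stromal subsets together, so a larger share of one subset and more open chromatin per cell cannot be told apart in any value below. The study states that bulk sequencing had at least 2 replicates from independent experiments. It does not state that all libraries of a group came from separate animals, so p-values measure only the spread between libraries. The analysis used 11 libraries, 3 each of mLN-SPF, pLN-SPF and mLN-GF and 2 of pLN-GF. The column headed pLN-GF replicate 2 was left out because each of its 42434 entries was the average of the remaining 5 pLN columns. Reads in peaks ranged from 2886129 to 10380493 per library, and the median peak nearest to a guidance gene held 26 to 83 reads, depending on the library.

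The sequences below come from peaks of at most 300 bases that carried called node differences of the Slits, class 3 semaphorins, neuropilins and Robos, so that the open stretches themselves can be read. They are the plus strand of the GRCm38 reference (C57BL/6J), and capitals mark matches, on either strand, to 10 short motifs: TGANTCA for AP-1, GGAATG for TEAD, TGACAG for MEIS, CACTTAA for NKX2, TTGGCA for NF1, CCCNNGGG for EBF, AGATAA for factors of the GATA family, CCGGAAG for ETS, TGTGGTT for RUNX and CAGCTG for the E-box. The MEIS and E-box letters can overlap by their shared CAG. The first peaks were more open in mLN, and the last pair, marked so, more open in pLN.
Slit2, 643 kb upstream, chr5:47339889-47340165: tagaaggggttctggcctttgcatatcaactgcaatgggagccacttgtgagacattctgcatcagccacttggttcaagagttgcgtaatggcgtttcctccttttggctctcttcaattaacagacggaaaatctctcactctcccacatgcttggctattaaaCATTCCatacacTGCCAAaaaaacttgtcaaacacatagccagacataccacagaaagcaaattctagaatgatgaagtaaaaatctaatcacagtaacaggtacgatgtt
Slit2, 26.5 kb downstream in an intron, chr5:48014236-48014516: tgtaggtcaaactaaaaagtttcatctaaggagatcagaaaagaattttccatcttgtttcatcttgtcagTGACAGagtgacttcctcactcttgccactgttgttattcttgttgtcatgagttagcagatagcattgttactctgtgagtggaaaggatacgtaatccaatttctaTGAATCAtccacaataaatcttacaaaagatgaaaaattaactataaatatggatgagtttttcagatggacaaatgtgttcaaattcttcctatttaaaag
Sema3d, 1.1 kb downstream in an intron, chr5:12384508-12384713: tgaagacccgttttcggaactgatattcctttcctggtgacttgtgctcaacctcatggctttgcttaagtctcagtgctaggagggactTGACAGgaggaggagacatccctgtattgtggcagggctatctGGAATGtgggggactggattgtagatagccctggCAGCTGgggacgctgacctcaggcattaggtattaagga
Sema3e, 5.74 kb downstream in an intron, chr5:14030928-14031108: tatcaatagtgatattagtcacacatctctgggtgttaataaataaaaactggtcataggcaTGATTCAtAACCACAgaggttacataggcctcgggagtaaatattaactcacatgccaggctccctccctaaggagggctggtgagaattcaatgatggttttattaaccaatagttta
Nrp2, 134 kb upstream in an intron of Pard3b, chr1:62569093-62569202: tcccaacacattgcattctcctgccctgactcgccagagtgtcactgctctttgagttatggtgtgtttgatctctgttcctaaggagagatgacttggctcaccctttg
Nrp2, 157 kb downstream, more open in pLN, chr1:62860834-62861063: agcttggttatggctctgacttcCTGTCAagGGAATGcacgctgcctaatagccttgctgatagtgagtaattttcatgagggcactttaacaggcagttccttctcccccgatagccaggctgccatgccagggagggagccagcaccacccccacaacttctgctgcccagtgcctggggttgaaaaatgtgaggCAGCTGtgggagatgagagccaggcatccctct
Robo2, 119 kb upstream, more open in pLN, chr16:74530610-74530863: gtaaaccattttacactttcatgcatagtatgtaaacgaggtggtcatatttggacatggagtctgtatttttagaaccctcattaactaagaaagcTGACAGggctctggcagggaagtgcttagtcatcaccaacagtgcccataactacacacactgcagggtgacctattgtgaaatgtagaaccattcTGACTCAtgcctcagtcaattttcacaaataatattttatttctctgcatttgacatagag

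The Slit2 peak far upstream held a TEAD and an NF1 match, the intronic Slit2 peak and the Robo2 peak each held an AP-1 and a MEIS match, and the Sema3e peak held an AP-1 match beside a RUNX match. The Sema3d and downstream Nrp2 peaks each held a MEIS, a TEAD and an E-box match, and the upstream Nrp2 peak held none of the 10 motifs. Such letters are common. Among all 10710 peaks of at most 300 bases, AP-1 letters were present in 23.7%, TEAD in 15.3%, MEIS in 14.7%, NF1 in 16.7%, RUNX in 4.3% and the E-box in 17.7%. Of the 117 guidance peaks of that length, 27.4% held AP-1, 22.2% MEIS, 15.4% TEAD and 14.5% GATA letters, the last against 9.56% of all peaks of that length. The Sema3e promoter, upstream of a secreted semaphorin that signals through plexin D1, is shown because it was among the few guidance promoters that differed between nodes. It is the RefSeq window of 300 bases around the start, and capitals mark the 168 bases inside the accessible peak. It held none of the 10 motifs.
Sema3e promoter, GRCm38.p6, plus strand, chr5:14025026-14025325: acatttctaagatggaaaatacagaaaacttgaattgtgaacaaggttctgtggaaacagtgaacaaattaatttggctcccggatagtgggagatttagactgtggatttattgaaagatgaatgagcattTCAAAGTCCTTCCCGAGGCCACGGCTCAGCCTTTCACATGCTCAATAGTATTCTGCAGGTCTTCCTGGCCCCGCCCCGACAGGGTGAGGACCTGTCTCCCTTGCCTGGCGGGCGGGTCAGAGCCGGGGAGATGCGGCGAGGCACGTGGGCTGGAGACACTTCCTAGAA

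Guidance genes had many peaks, and most lay far from a promoter. A gene with a peak had a median of 6 peaks in this set and 2 over all 14603 genes. Efna5 and Sema6d had the most, with 22 each, 15 genes had 10 or more, and 7 had 1. Only 14.9% of the guidance peaks lay within 1 kb of a TSS (promoter peaks), against 32% of all peaks. Introns held 41.4% against 28%, intergenic sequence 42% against 37%, coding exons 0.845% against 2.15% and UTRs 0.845% against 0.867%. The median distance to the TSS was 68.2 kb against 10.4 kb, and 147 peaks (41.4%, against 13.8% of all peaks) lay over 100 kb away. The median peak was 424 bases wide, against 537, with a mean accessibility of 23 against 27 RPKM (reads per kilobase of peak, scaled for library size). Distances below run to the nearest start of any transcript, so an intronic peak can lie upstream of an internal start.

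The labelled identity of the cells was checked on promoter peaks of marker genes. Summed over the promoters of 6 stromal genes (Pdgfra, Pdgfrb, Ltbr, Cxcl12, Col1a1 and Col1a2), accessibility was 277 to 332 RPKM in mLN-SPF and 276 to 333 RPKM in pLN-SPF, with no promoter peak for Pdpn or Ccl19. No promoter peak was present for any of 6 hematopoietic genes, but of 18 other peaks at 4 of them 0 were called higher and 3 lower in mLN-SPF by the rule given below (16.7% lower, against 4.27% of all peaks). Promoter peaks were also lacking for the endothelial genes Pecam1, Cdh5, Tie1 and Sox17 and the neural and glial genes Sox10, S100b and Elavl3. Other marker lists differed between nodes too. The promoter of Wt1, a mesothelial and mesenchymal transcription factor gene, measured 48.1 to 58.3 RPKM in mLN-SPF and 9.76 to 18.1 RPKM in pLN-SPF, while Msln and Lrrn4, which define mesothelium, had no peak; 8 of the 10 peaks of that list were called higher in mLN. Of the genes of Schwann cells and neurons, the promoter of Erbb3 measured 36.1 to 55.3 RPKM in mLN-SPF and 29.3 to 33.0 RPKM in pLN-SPF, and that of Tubb3 28.9 to 44.2 and 24.1 to 31.4 RPKM. The lymphatic endothelial promoters (Prox1 and Flt4) summed to 41.1 to 78.9 RPKM in mLN-SPF and 24.1 to 64.1 RPKM in pLN-SPF. The perivascular promoters (Rgs5, Notch3, Kcnj8 and Abcc9) summed to 92.9 to 118 RPKM in mLN-SPF and 136 to 169 RPKM in pLN-SPF. Of 35 peaks at 8 blood endothelial genes, 2 were called higher and 9 lower in mLN-SPF (5.71% and 25.7%, against 6.49% and 4.27% of all peaks), although the endothelial promoters with a peak (Kdr, Tek, Erg and Sox7) summed to 98.1 to 126 RPKM in mLN-SPF and 80.5 to 120 RPKM in pLN-SPF. The part of these cell types in the results below was not tested.

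In SPF mice, chromatin near guidance genes differed between the nodes at 58 peaks of 23 genes. By called peaks, ligand genes leaned to the gut-draining node. Slit2, Slit3, Sema3d, Sema3e, Efna5, Ntn1 and Ntn4 had called peaks in that direction and none in the other. Robo1 and Robo2, the Slit receptor genes, leaned the other way. The ligand genes Efnb2, Sema5a and Sema6a had calls in both directions, and over all its peaks Slit3 had 9 log2 differences above 0 and 8 below. A peak was called a differentially accessible region (DAR) when its mLN and pLN values differed at least 2-fold with an adjusted p under 0.05 in limma, a linear model fitted to log2(RPKM + 1) of all 42424 peaks. By that rule 42 guidance peaks (11.8%) were higher in mLN-SPF, against 6.49% of all peaks, and 16 (4.51%) were lower, against 4.27% of all peaks. Outside promoters the counts were 37 and 16 of 302 peaks (12.3% and 5.3%), against 8.9% and 5.96% of all such peaks. Over 100 kb from a TSS the shares were 14.3% and 6.8%, against 10.2% and 9.17% of all peaks there. At 10 to 100 kb they were 11% and 4.24%, against 8.76% and 5.69%. Within 1 to 10 kb they were 8.11% and 2.7%, against 8.24% and 4.03%. At promoters, within 1 kb, they were 9.43% and 0%, against 1.38% and 0.692%. The share toward mLN was thus above the background at promoters, where the gap was largest, and beyond 10 kb. The share toward pLN was under it at each distance. Outside promoters that rests on 1, 5 and 10 peaks, from the nearest class to the farthest. It was not so in GF mice, with 10.8% against 4.41% at 1 to 10 kb. Of the 156 ligand peaks 31 were higher and 4 lower (19.9% and 2.56%). Of the 199 receptor peaks 11 were higher and 12 lower (5.53% and 6.03%), near the shares of all peaks. The median log2 difference was 0.11 over ligand peaks, −0.30 over receptor peaks, −0.16 over all guidance peaks and 0.00 over all peaks of the table. Calls in either direction made up 42.9% of the netrin peaks, 33.3% of the Slit, 30.4% of the class 3 semaphorin, 20.5% of the ephrin, 18.8% of the neuropilin, 15.8% of the Robo and 13.8% of the membrane-bound semaphorin peaks, against 10.8% of all peaks. The plexins (10.7%) and EphA receptors (10.5%) stood at that background, and the netrin receptors (6.67%) and EphB receptors (0%) below it. Outside promoters, where most guidance peaks lay, 14.9% of all peaks were called. The Robo and membrane-bound semaphorin shares were near that value, and those of the plexins and EphA receptors were under it.

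**Figure D1:**
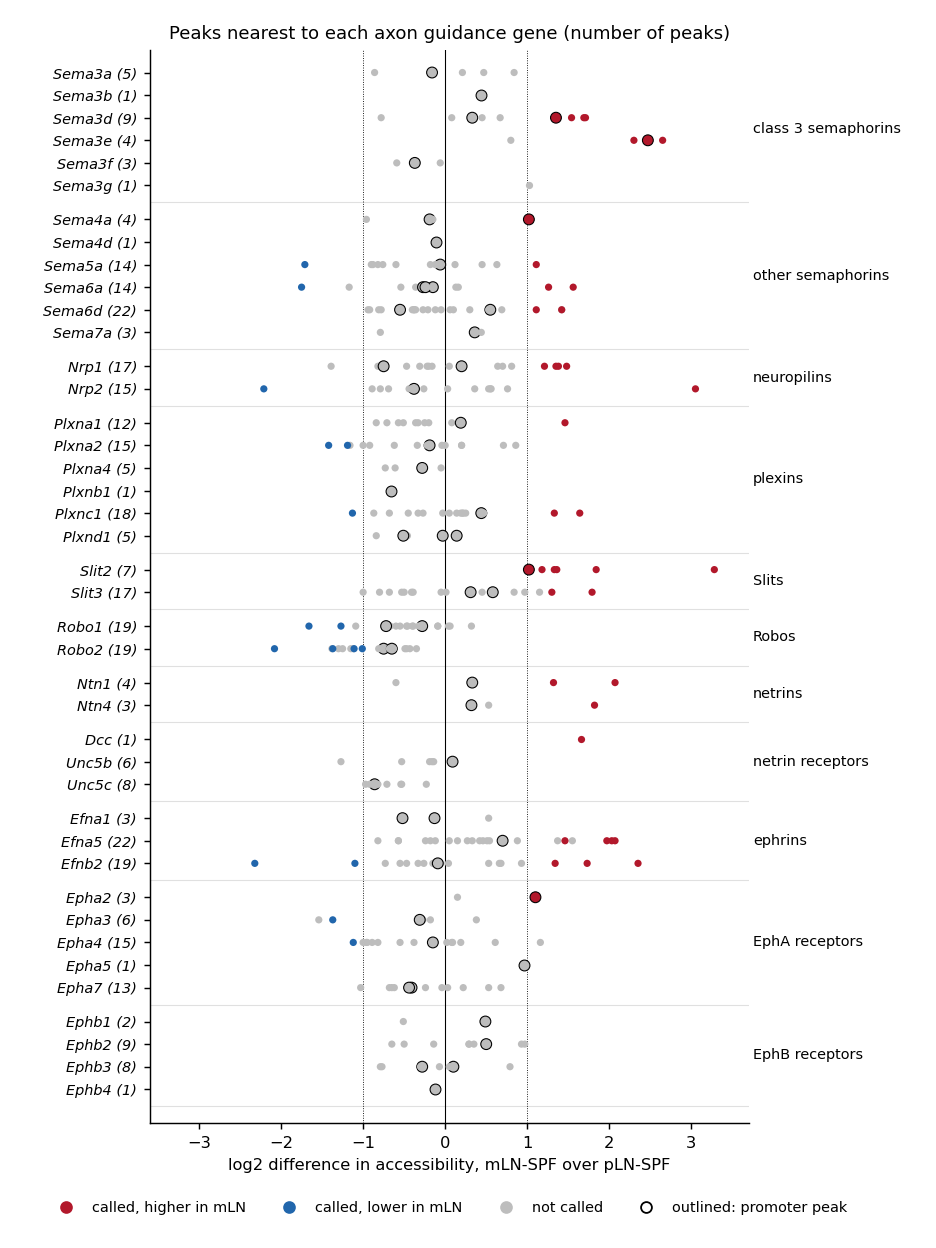
Log2 difference in accessibility (x axis, mLN-SPF over pLN-SPF, log2(RPKM + 1) scale) of each of the 355 peaks, by nearest gene (y axis, number of peaks in brackets) and family. Red points are the 42 peaks called higher in mLN, blue points the 16 called lower, grey points were not called, dotted lines mark 2-fold, and outlined points are promoter peaks; all 5 called promoters are red, and Robo1 and Robo2 have blue and no red points.

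The counts depended on the libraries, and those of the whole table moved with them. Leaving out mLN-SPF replicate 3 gave 23 higher and 10 lower guidance calls (6.48% and 2.82%, against 3.67% and 2.33% of all peaks). Leaving out pLN-SPF replicate 1 gave 24 and 7 (6.76% and 1.97%, against 4.25% and 2.05%), and leaving out replicate 2 of that group gave 24 and 4 (6.76% and 1.13%, against 3.69% and 1.7%). With mLN-SPF replicate 2 left out, 38 were higher and 33 lower (10.7% and 9.3%, against 7.19% and 6.81%), and the lower calls of receptor genes numbered 25, in place of 12. For receptor genes the higher calls numbered 4, 4, 2 and 3 and the lower calls 9, 8, 5 and 3 in the fits that lacked mLN-SPF replicate 1, mLN-SPF replicate 3, pLN-SPF replicate 1 and pLN-SPF replicate 2, in that order. The ligand calls stayed mostly toward mLN in every fit that lacked 1 SPF library, with 19 to 34 higher and 1 to 8 lower. Of the 58 DARs, 21 were called without each SPF library in turn. Among the peaks whose 3 values in each node did not overlap were 66 guidance peaks higher in mLN-SPF (18.6%, against 16.6% of all peaks) and 84 lower (23.7%, against 16.5%). Outside promoters the shares were 18.9% and 24.2%, against 18.3% and 20.2% of all peaks there. By this looser measure, which sets no size of change, the lower side stood further from the background, less so outside promoters. Of the 84 lower peaks, 19 were Robo peaks.

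Slit2, a large secreted glycoprotein that repels axons and migrating cells through Robo receptors, leaned to mLN throughout. Of its 7 peaks, 6 were DARs, each higher in mLN-SPF, and all 7 log2 differences were above 0 in both housings. The peak 643 kb upstream measured 14.7, 41.2 and 36.9 RPKM in mLN-SPF, against 1.38, 1.53 and 3.54 RPKM in pLN-SPF. In GF mice it measured 34.3, 25.8 and 33.7 RPKM in mLN, against 3.37 and 3.11 RPKM in pLN. This stretch was open in every mLN library and low in every pLN library, with no overlap. The log2 difference was 3.28 ± 0.42 (SE, adjusted p = 0.00151) in SPF mice and 2.92 ± 0.47 (adjusted p = 0.00142) in GF mice. The promoter of Slit2 was open in both nodes and less different, at 52.7, 59.5 and 62.6 RPKM in mLN-SPF, against 27.4, 29.0 and 28.4 RPKM in pLN-SPF (log2 difference 1.02 ± 0.17, adjusted p = 0.00313, and 1.29 in GF mice). It sat at the 2-fold limit, and its call was lost with mLN-SPF replicate 2 (1.00), mLN-SPF replicate 3 (0.96) or pLN-SPF replicate 1 (0.99) left out. The other called Slit2 peaks were 742 kb upstream (1.33 in SPF and 1.12 in GF mice), 547 kb upstream (1.36 and 1.68), 204 kb upstream (1.18 and 0.19) and 26.5 kb downstream (1.84 and 2.62). Of these 4, the peak at 742 kb was called without each SPF library in turn. The number of Slit2 DARs was 3 with mLN-SPF replicate 2 left out, 2 with mLN-SPF replicate 3 left out, 2 with pLN-SPF replicate 1 left out and 4 with pLN-SPF replicate 2 left out.

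Slit3, a related secreted ligand of Robo receptors, had 17 peaks with values on both sides of 0 and 2 DARs, both higher in mLN-SPF. The peak 55.1 kb upstream measured 57.6, 37.0 and 44.6 RPKM in mLN-SPF, against 19.5, 15 and 19.7 RPKM in pLN-SPF (log2 difference 1.30 ± 0.22, adjusted p = 0.00344, and 2.81 in GF mice). The peak in an intron of Slit3, 151 kb upstream of an internal start, measured 38.2, 22.1 and 35.7 RPKM in mLN-SPF, against 9.97, 6.05 and 9.31 RPKM in pLN-SPF (1.79 ± 0.29, adjusted p = 0.00271, and 2.02 in GF mice). The nodes did not overlap, and both were called without each SPF library in turn. The 2 promoter peaks of Slit3 did not pass the test, and the stronger averaged 39.6 ± 6.16 RPKM in mLN-SPF and 32.1 ± 8.02 RPKM in pLN-SPF (SD, n = 3 each). The Slit DARs numbered 4 in the fit that lacked mLN-SPF replicate 3 and 4 in the one that lacked pLN-SPF replicate 1. In the fits that lacked mLN-SPF replicate 2 and pLN-SPF replicate 3, 1 Slit peak was called lower in mLN.

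The Robo genes, whose products are the transmembrane receptors of Slits, showed the opposite picture. They lie next to each other on chromosome 16, and their 38 peaks span 2941 kb. Of these, 35 had a negative log2 difference in SPF mice (16 of 19 at Robo1 and 19 of 19 at Robo2), against 21044 of all 42424 peaks. DARs lower in mLN-SPF numbered 6 (15.8%, against 4.27% of all peaks), and DARs higher 0 (0%, against 6.49%). The peak 61.9 kb upstream of the nearest Robo1 start, in an intron, measured 12.5, 31.6 and 17.5 RPKM in mLN-SPF, against 45.4, 42.4 and 56.1 RPKM in pLN-SPF (−1.27 ± 0.27, adjusted p = 0.00934, and −1.26 in GF mice). The peak 119 kb upstream of Robo2 measured 1.53, 12.3 and 11.1 RPKM in mLN-SPF, against 24.8, 35.1 and 32.2 RPKM in pLN-SPF (−2.08 ± 0.51, adjusted p = 0.0171). Every mLN value lay below every pLN value at both peaks. In GF mice the Robo2 peak measured 4.16, 4.90 and 4.24 RPKM in mLN, against 43.3 and 27.7 RPKM in pLN (−2.72 ± 0.57, adjusted p = 0.00652). The intronic Robo1 peak 98.2 kb upstream had a log2 difference of −1.66 in SPF and −1.82 in GF mice. The Robo2 peaks 115 kb upstream, 384 kb upstream and 136 kb downstream had −1.37, −1.11 and −1.01 in SPF mice and −1.59, −0.86 and −0.92 in GF mice.

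Each of the 6 Robo calls was lost without at least 1 SPF library. The Robo1 peak at 61.9 kb lost its call without mLN-SPF replicate 1 (−0.99) and the Robo2 peak at 119 kb without pLN-SPF replicate 2 (−1.98). With mLN-SPF replicate 1 left out, with mLN-SPF replicate 3 left out and with pLN-SPF replicate 1 left out, 3 Robo DARs were called each time. Leaving out pLN-SPF replicate 2 gave 1 and leaving out mLN-SPF replicate 2 gave 12, each lower in mLN. The promoters of both genes were open in both nodes. That of Robo2 averaged 56.3 ± 20.2 RPKM in mLN-SPF and 91.5 ± 11.9 RPKM in pLN-SPF (−0.75 ± 0.22, adjusted p = 0.0378, under 2-fold), and that of Robo1 45.7 ± 2.93 and 56.2 ± 8.32 RPKM (−0.28 ± 0.15, adjusted p = 0.227).

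**Figure D2:**
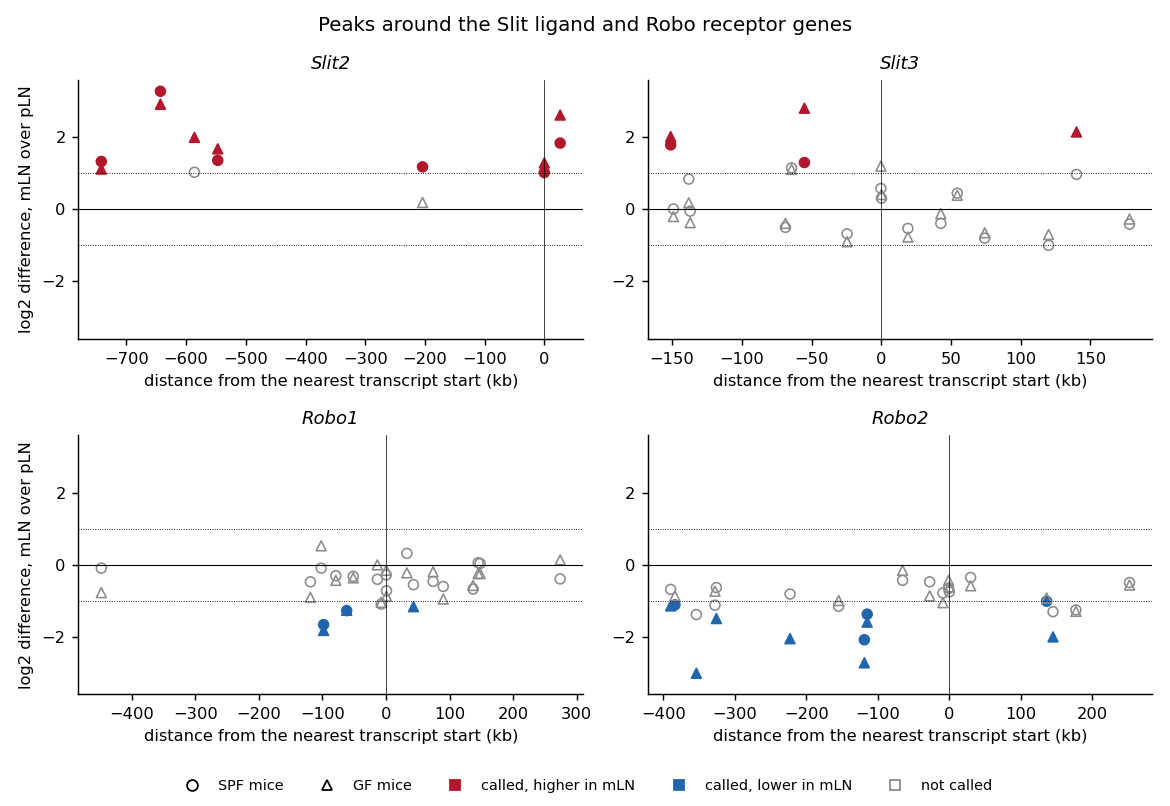
Log2 difference between nodes (y axis, mLN over pLN) of each peak against its distance in kb from the nearest transcript start (x axis, negative upstream) for Slit2, Slit3, Robo1 and Robo2; circles are SPF mice, triangles GF mice, and filled symbols were called. The 7 Slit2 peaks all lie above 0 and the 19 Robo2 peaks all lie below it in both housings, while Slit3 has values on both sides.

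Among the class 3 semaphorins, which are secreted and mostly bind neuropilins, the calls in SPF mice stood at Sema3d and Sema3e with every library in the fit. The family had 23 peaks, of which 7 were DARs, each higher in mLN-SPF. Sema3d, Sema3a and Sema3e are neighbours on chromosome 5, where their 18 peaks span 1735 kb. Sema3e had 4 peaks and 3 DARs. Its promoter measured 31.5, 17.9 and 35.0 RPKM in mLN-SPF, against 2.70, 6.02 and 3.97 RPKM in pLN-SPF. In GF mice the same promoter measured 18.7, 19.5 and 25.1 RPKM in mLN, against 6.42 and 3.49 RPKM in pLN. The groups did not overlap in either housing, and the log2 difference was 2.47 ± 0.38 (adjusted p = 0.00244) in SPF and 1.93 ± 0.42 (adjusted p = 0.00814) in GF mice. The intronic peak 5.74 kb downstream measured 22.6, 32.5 and 52.6 RPKM in mLN-SPF, against 4.75, 6.46 and 7.22 RPKM in pLN-SPF (2.30 ± 0.43, adjusted p = 0.00516), without overlap. Both pLN-GF libraries held 0 reads there, against 16, 17.2 and 40.7 RPKM in mLN-GF (11, 20 and 41 reads). The mLN-GF mean was 9.01-fold higher when each pLN-GF library is set to a floor of 3 reads, a ratio that leaves out the counting error of the mLN-GF reads. The peak 99.4 kb upstream of Sema3e had a log2 difference of 2.65 ± 0.51 (adjusted p = 0.00587) in SPF and 2.94 in GF mice. All 3 Sema3e calls held without each SPF library in turn.

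Sema3d had 9 peaks and 4 DARs. The peak 1.1 kb into the gene measured 33.1, 49.1 and 78.7 RPKM in mLN-SPF, against 11.6, 13.4 and 20.6 RPKM in pLN-SPF (1.71 ± 0.32, adjusted p = 0.00489, and 1.85 in GF mice). The peak 87.6 kb upstream measured 36.5, 32.5 and 40.2 RPKM in mLN-SPF, against 11.2, 7.81 and 13.2 RPKM in pLN-SPF (1.69 ± 0.33, adjusted p = 0.00627, and 2.57 in GF mice). Values of the nodes stood apart at both peaks. Another, at an internal start of Sema3d, had 1.35 in SPF and 0.42 in GF mice and lost its call without mLN-SPF replicate 3 (1.14). A further upstream peak at 85.8 kb had 1.54 in SPF and 1.71 in GF mice and lost its call with mLN-SPF replicate 1 (1.29) or pLN-SPF replicate 2 (1.24) left out. Sema3a, the classical growth cone collapsing factor, with 5 peaks, Sema3f with 3, and Sema3b and Sema3g with 1 each had no DAR in SPF mice. The single Sema3g peak measured 39.6, 22.5 and 32.3 RPKM in mLN-SPF, against 21.6, 18.9 and 7.49 RPKM in pLN-SPF (log2 difference 1.02, adjusted p = 0.059).

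The membrane-bound semaphorins were mixed, with 6 DARs higher and 2 lower in mLN-SPF among 58 peaks. These were 10.3% and 3.45%, against 6.49% and 4.27% of all peaks, or 8.9% and 5.96% outside promoters. Of these 8, the smallest adjusted p belonged to an intronic peak of Sema6d, 87.6 kb upstream of an internal start, at 34.9, 42.5 and 52.8 RPKM in mLN-SPF, against 21.5, 21 and 15.7 RPKM in pLN-SPF (1.11 ± 0.26, adjusted p = 0.0124, and 0.78 in GF mice). A second Sema6d peak, 144 kb upstream, measured 29.8, 19.6 and 24.7 RPKM in mLN-SPF, against 8.91, 5.67 and 12 RPKM in pLN-SPF (1.42 ± 0.34, adjusted p = 0.0152, and 1.27 in GF mice). The nodes did not overlap at either. Sema5a and Sema6a had calls in both directions inside 1 gene region. The Sema5a peaks 41.5 and 168 kb downstream had log2 differences of 1.11 and −1.71 in SPF mice and 1.35 and −1.09 in GF mice. The Sema6a peaks 255, 294 and 15.8 kb upstream had 1.26, 1.56 and −1.75 in SPF mice and 0.96, 1.45 and −1.49 in GF mice. The promoter of Sema4a, a semaphorin best known from immune cells, had 1.02 ± 0.31 (adjusted p = 0.0434) in SPF and 1.73 in GF mice. Each of these 8 calls was lost without at least 1 SPF library. The family had 1 call in the fits that lacked mLN-SPF replicate 3 and pLN-SPF replicate 2, 3 calls in the one that lacked pLN-SPF replicate 1 and 4 in the one that lacked mLN-SPF replicate 1. Sema4d and Sema7a had none.

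Both netrin genes leaned to mLN. Ntn1 encodes the classical chemoattractant netrin, and Ntn4 a netrin of basement membranes. The peak 19.9 kb upstream of Ntn4 measured 43.4, 25.3 and 39.8 RPKM in mLN-SPF, against 10.1, 9.83 and 8 RPKM in pLN-SPF (1.82 ± 0.31, adjusted p = 0.00323, and 1.30 in GF mice). An intronic Ntn1 peak 100 kb downstream measured 41.9, 22.0 and 43.3 RPKM in mLN-SPF, against 13.4, 11.4 and 14.9 RPKM in pLN-SPF (1.32 ± 0.28, adjusted p = 0.00915, and 1.68 in GF mice). No pLN value reached an mLN value at either peak. The other Ntn1 call, 194 kb downstream in an intron of Stx8, had 2.07 ± 0.54 (adjusted p = 0.0214; 2.22 in GF mice) and was lost without mLN-SPF replicate 1 (1.92), mLN-SPF replicate 3 (1.75) or pLN-SPF replicate 2 (1.71). Their promoters did not pass the test, at 13.0 ± 5.53 RPKM in mLN-SPF and 9.77 ± 3.13 RPKM in pLN-SPF for Ntn1 and 16.1 ± 3.92 and 13.1 ± 5.32 RPKM for Ntn4.

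Among the ephrins, Efna5 leaned to mLN and Efnb2 went both ways. Efna5 encodes a lipid-anchored ephrin that repels Eph-bearing cells, and 4 of its 22 peaks were DARs, each higher in mLN-SPF. The peak 447 kb downstream measured 30.5, 28.3 and 43.1 RPKM in mLN-SPF, against 8.88, 7.15 and 5.86 RPKM in pLN-SPF (2.07 ± 0.30, adjusted p = 0.00209, and 2.58 in GF mice). The peak 433 kb downstream had a log2 difference of 1.97 ± 0.33 in SPF and 2.56 in GF mice, and an intronic peak 74.4 kb downstream 2.03 ± 0.38 and 2.28. These 3 were called without each SPF library in turn. The call at 513 kb downstream (1.46, and 2.17 in GF mice) was lost without any of mLN-SPF replicates 1, 2 and 3 (1.5, 1.38 and 1.5) and pLN-SPF replicates 1 and 2 (1.38 and 1.00). Efnb2 encodes the transmembrane ephrin that marks arterial endothelium, and its 19 peaks span 1602 kb. The peak 140 kb downstream measured 3.91, 9.94 and 8.85 RPKM in mLN-SPF, against 38.5, 40.8 and 39.0 RPKM in pLN-SPF (−2.32 ± 0.35, adjusted p = 0.00232), and 13.9, 6.64 and 6.55 RPKM in mLN-GF, against 48.0 and 44.3 RPKM in pLN-GF. No mLN value came near a pLN value, and the log2 difference in GF mice was −2.31. On the same side of the gene, the Efnb2 peaks 339, 452 and 826 kb downstream were higher in mLN-SPF (1.34, 1.73 and 2.35, against 1.76, 2.33 and 1.60 in GF mice), and a peak 523 kb downstream was lower (−1.10, and −0.93 in GF mice). The peaks at 826 and 523 kb lost their calls without pLN-SPF replicate 1 (1.69 and −0.96), and the peak at 523 kb also with mLN-SPF replicate 1 (−0.94) or pLN-SPF replicate 2 (−1.13) left out. Efna1 had 3 peaks and no DAR.

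The neuropilins, co-receptors for class 3 semaphorins and for vascular endothelial growth factors, had 5 DARs higher and 1 lower in mLN-SPF among 32 peaks. These were 15.6% and 3.12%, against 6.49% and 4.27% of all peaks. Nrp2 had a called peak in each direction. The peak 134 kb upstream, in an intron of the neighbouring gene Pard3b, measured 31.8, 15.1 and 16 RPKM in mLN-SPF, against 1.74, 4.83 and 0 RPKM in pLN-SPF (3.05 ± 0.63, adjusted p = 0.00761). It was 110 bases wide, against a median of 424 over guidance peaks, so these values rest on few reads. The peak 157 kb downstream measured 9.30, 6.4 and 1.53 RPKM in mLN-SPF, against 25.7, 27.2 and 24.2 RPKM in pLN-SPF (−2.21 ± 0.44, adjusted p = 0.00664). These peaks lie on either side of Nrp2, and the nodes did not overlap at either. Both were called without each SPF library in turn. They were DARs in GF mice too (2.19 and −1.72), but there both calls were lost without any of mLN-GF replicates 1 and 3 (2.22 and 1.67 upstream, −1.80 and −1.48 downstream) and pLN-GF replicates 1 and 3 (1.94 and 2.44, −1.79 and −1.65). Nrp1 had 4 DARs of 17 peaks, 154 kb upstream (1.38 in SPF and 1.32 in GF mice) and 57.6, 105 and 132 kb downstream (1.35, 1.48 and 1.21 in SPF mice and 0.66, 1.98 and 0.63 in GF mice). In the fit that lacked mLN-SPF replicate 1, 0 Nrp1 peaks were called higher and 2 lower, and in the one that lacked pLN-SPF replicate 1 there was no call. In those that lacked mLN-SPF replicate 3 and pLN-SPF replicate 2 the count was 1. The strongest promoter peaks of Nrp1 and Nrp2 had 0.20 and −0.38 and did not pass the test.

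The plexins, the signalling receptors of semaphorins, had 3 DARs in each direction among 56 peaks (5.36% each, against 6.49% higher and 4.27% lower over all peaks). Plxnc1, the receptor of Sema7a, had a peak 178 kb upstream at 31.1, 17.5 and 31.2 RPKM in mLN-SPF, against 8.77, 7.59 and 13.3 RPKM in pLN-SPF (1.33 ± 0.31, adjusted p = 0.0134, and 1.44 in GF mice). A second, 96.3 kb upstream, measured 21.7, 14.2 and 25.8 RPKM in mLN-SPF, against 5.88, 3.48 and 8.82 RPKM in pLN-SPF (1.64 ± 0.43, adjusted p = 0.0227, and 3.06 in GF mice). The nodes did not overlap at either, while an intronic Plxnc1 peak 5.03 kb downstream went the other way (−1.13, and −0.89 in GF mice). Plxna2 had DARs 24.8 kb (−1.42, and −1.76 in GF mice) and 446 kb upstream (−1.19 and −1.96), and Plxna1 had 1, 12.2 kb downstream (1.46 and 1.93). The plexin calls numbered 0 with pLN-SPF replicate 1 or 2 left out and 1 with mLN-SPF replicate 1 or 3 left out. Plxna4, Plxnb1 and Plxnd1, the last the receptor of Sema3e, had no DAR in SPF mice.

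Of the netrin receptors, Dcc had 1 peak, 570 kb upstream of its start. It measured 26.6, 40.7 and 43.9 RPKM in mLN-SPF, against 12.3, 13.2 and 7.88 RPKM in pLN-SPF (1.65 ± 0.33, adjusted p = 0.00659, and 2.09 in GF mice), and no peak was present at the Dcc promoter. Unc5b and Unc5c, receptors of netrin repulsion, had 6 and 8 peaks and no DAR in SPF mice. The Unc5c promoter averaged 43.1 ± 8.71 RPKM in mLN-SPF and 78.2 ± 7.82 RPKM in pLN-SPF (−0.86 ± 0.16, adjusted p = 0.00553), under 2-fold.

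Among the Eph receptors, the tyrosine kinases that ephrins bind, the 38 EphA peaks held 2 DARs in each direction (5.26% each, near the shares of all peaks). The 20 EphB peaks held 0 in limma, with 8 at an unadjusted p under 0.05 (40%, against 29.9% of all peaks), although without pLN-SPF replicate 3 the count was 2 and without mLN-SPF replicate 2 it was 1. Epha3 had a peak 94.3 kb upstream at 14.4, 35.8 and 23.2 RPKM in mLN-SPF, against 63.1, 66.3 and 54.4 RPKM in pLN-SPF (−1.37 ± 0.27, adjusted p = 0.00631, and −1.58 in GF mice). Epha4 had one 237 kb downstream at 12.5, 16.9 and 14.7 RPKM in mLN-SPF, against 35.9, 35.9 and 27.6 RPKM in pLN-SPF (−1.12 ± 0.26, adjusted p = 0.0142, and −1.48 in GF mice). The nodes stood apart at both. The Epha3 peak was called without each SPF library in turn, and the Epha4 peak was lost without pLN-SPF replicate 1 or pLN-SPF replicate 2 (−1.06 each). The promoter of Epha2 and an intronic peak 1.61 kb from an Epha2 start both had a log2 difference of 1.10 in SPF mice (adjusted p = 0.0348 and 0.0301) and 0.92 and 0.91 in GF mice. Both were lost without mLN-SPF replicate 1 (0.81 and 0.91), pLN-SPF replicate 1 or pLN-SPF replicate 2. Without either of the last pair, 1 EphA call was left, and there were 6 when pLN-SPF replicate 3 was dropped, as when mLN-SPF replicate 2 was. Epha5, Epha7 and Ephb1 to Ephb4 had no DAR in SPF mice.

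**Figure D3:**
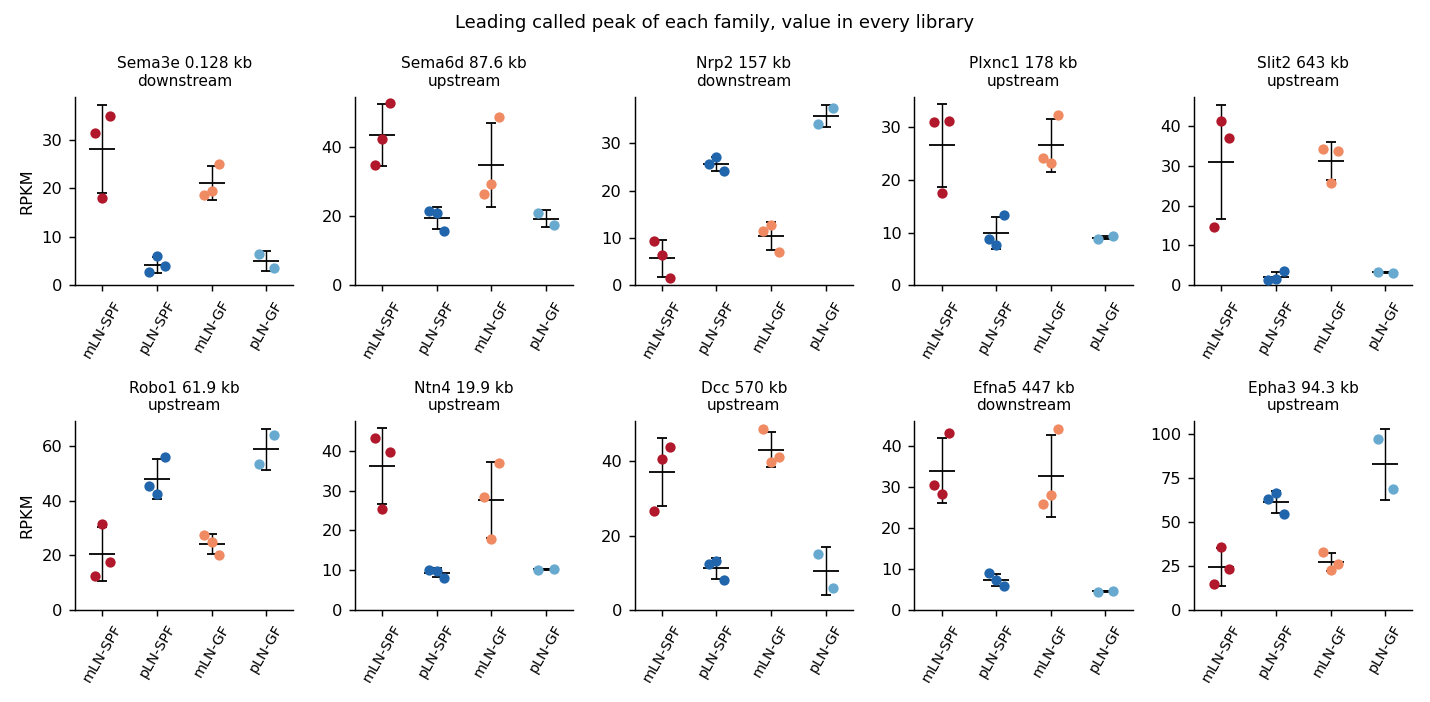
RPKM (y axis) in every library of the called peak with the smallest adjusted p in SPF mice for 10 of the 11 families (EphB receptors had none). Points are libraries, bars the mean and SD of 3 libraries (2 for pLN-GF), and each panel sets mLN beside pLN, first in SPF and then in GF mice; the Nrp2, Robo1 and Epha3 peaks are lower in mLN and the other 7 higher, in both housings.

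At promoters, where a gene's own start is read most directly, differences were small. A promoter peak was found for 39 genes, all but Slit1, Dcc and Sema3g. The strongest promoter peak of each averaged 11.1 RPKM (Ntn1) to 106 RPKM (Epha7), with a median of 37.4 RPKM. Of the 53 promoter peaks 5 were DARs (9.43%), each higher in mLN-SPF, against 1.38% of all promoter peaks. They were those of Sema3e (2.47), Sema3d (1.35), Epha2 (1.10), Slit2 (1.02) and Sema4a (1.02), of which Sema3e was called without each SPF library in turn. For 33 of the 39 genes the strongest promoter peak differed under 2-fold between nodes in both housings, and the median size of the log2 difference was 0.36 in SPF mice. Among the uncalled promoters, Efna5 averaged 70.6 ± 8.27 RPKM in mLN-SPF and 43.1 ± 6.01 RPKM in pLN-SPF (0.70 ± 0.17, adjusted p = 0.0151), and Sema6d 56.8 ± 7.31 and 83.6 ± 8.99 RPKM (−0.55 ± 0.15, adjusted p = 0.0266). Both passed the test under 2-fold. Epha5 averaged 36.1 ± 12.1 RPKM in mLN-SPF and 17.8 ± 4.39 RPKM in pLN-SPF and did not pass it (0.96, adjusted p = 0.0967). The promoters of Ephb3 (107 ± 10.9 and 100 ± 2.65 RPKM) and Sema5a (56.9 ± 2.19 and 59.8 ± 6.82 RPKM) differed by less than the larger SD of the pair.

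**Figure D4:**
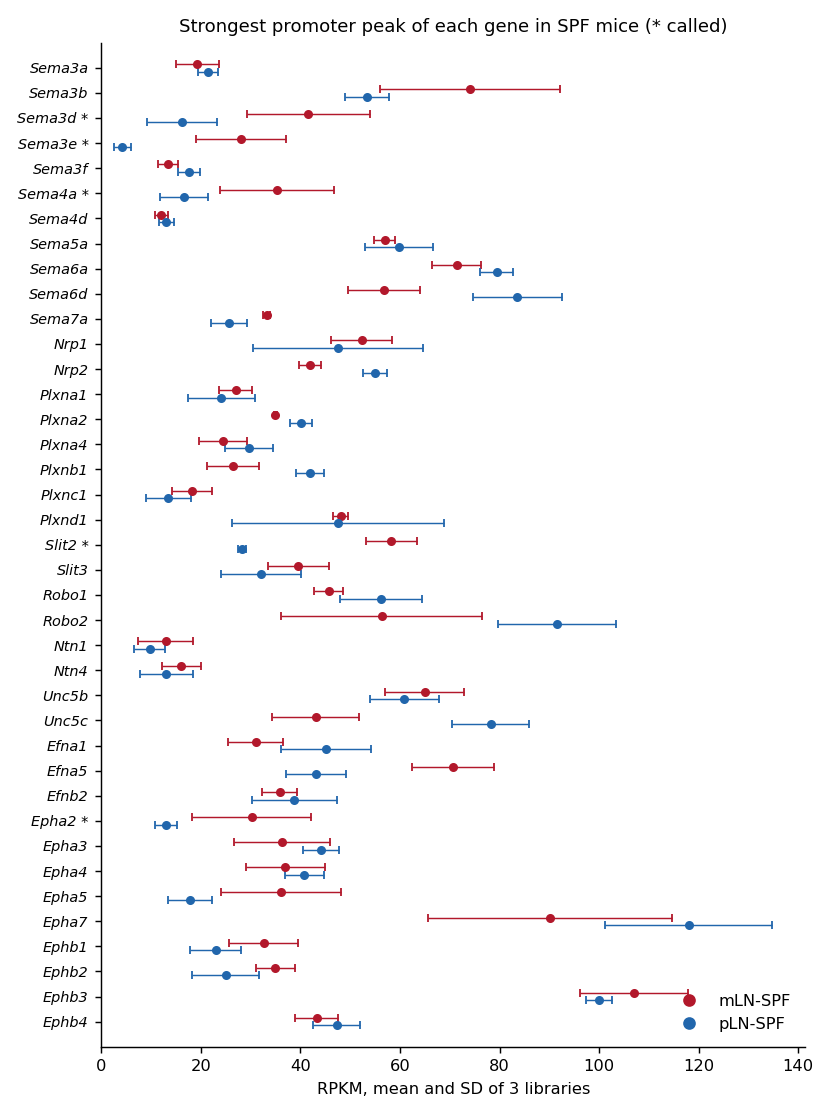
Accessibility in RPKM (x axis, mean and SD of 3 libraries) of the strongest promoter peak of each of 39 genes (y axis) in mLN-SPF (red) and pLN-SPF (blue). Asterisks mark the 5 called genes, Sema3d, Sema3e, Sema4a, Slit2 and Epha2, each higher in mLN-SPF; most other pairs lie close together.

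The node differences were also present in germ-free mice. Their libraries did not enter the log2 differences of SPF mice, but all 11 libraries shared 1 estimate of the spread, and with the SPF libraries alone in the fit 50 guidance peaks were DARs in place of 58. In GF mice 43 guidance peaks (12.1%) were higher in mLN, against 8.55% of all peaks, and 27 (7.61%) lower, against 4.62%. Outside promoters the shares were 13.2% and 8.94%, against 11.7% and 6.52% of all peaks there. Over 100 kb from a TSS they were 16.3% and 10.9%, against 12.4% and 10.8%. At 10 to 100 kb they were 11.9% and 5.93%, against 11.7% and 5.92%, and at 1 to 10 kb 5.41% and 10.8%, against 11.3% and 4.41%. Groups did not overlap at 92 peaks higher in mLN-GF (25.9%, against 23.5%) and 127 lower (35.8%, against 25.3%). Outside promoters these shares were 25.5% and 36.4%, against 25.5% and 30.1% of all peaks there. All 58 DARs of SPF mice had the same direction in GF mice, 41 of them (31 higher and 10 lower) were DARs there too, and 55 had groups that did not overlap there, against 4281 of the 4567 SPF DARs of the whole table. These 41 were 70.7% of the SPF and 58.6% of the GF DARs of guidance genes, and over all peaks the shares were 67.6% and 55.3%, with 99% of SPF DARs in the same direction. Of all 355 peaks 310 (87.3%) had the same direction in both housings, against 79.5% of the whole table. Averaged over both housings, 53 guidance peaks were DARs higher in mLN (14.9%, against 9.43%) and 33 lower (9.3%, against 6.05%).

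By family, the ligand genes had 33 DARs higher and 2 lower in mLN-GF, and the receptor genes had 10 higher and 25 lower. These were 21.2% and 1.28% of the ligand peaks and 5.03% and 12.6% of the receptor peaks, against 8.55% and 4.62% of all peaks. The Slits had 9 and 0 (37.5% higher), the class 3 semaphorins 8 and 0 (34.8%), the ephrins 10 and 1 (22.7% and 2.27%), the netrins 3 and 0 of 7 peaks, and the Robos 0 and 10 (26.3% lower). The plexins had 3 and 6 (5.36% and 10.7%), the EphA receptors 1 and 5 (2.63% and 13.2%), the neuropilins 4 and 1 (12.5% and 3.12%) and the membrane-bound semaphorins 3 and 1 (5.17% and 1.72%, both under the shares of all peaks). The netrin receptors had 1 and 2 of 15 peaks and the EphB receptors 1 and 1 of 20. With 2 pLN-GF libraries, each weighed heavily, in the whole table as in the guidance peaks. The guidance calls were 28 higher and 2 lower without pLN-GF replicate 1 (7.89% and 0.563%, against 4.71% and 0.745% of all peaks), 21 and 5 without pLN-GF replicate 3 (5.92% and 1.41%, against 4.65% and 0.908%), and 32 and 12 without mLN-GF replicate 3 (9.01% and 3.38%, against 5.95% and 2.26%). The Robo DARs numbered 1 without either pLN-GF library and 5 without mLN-GF replicate 3, and the lower calls of receptor genes 1, 4 and 9 without pLN-GF replicate 1, pLN-GF replicate 3 and mLN-GF replicate 3. The higher calls of ligand genes numbered 24, 16 and 27 in the same 3 fits. Without pLN-GF replicate 3 the Slit DARs numbered 5 and the class 3 semaphorin DARs 2, and the second count was 5 without mLN-GF replicate 1 or mLN-GF replicate 3. Of the 70 DARs 16 were called without each GF library in turn.

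**Figure D5:**
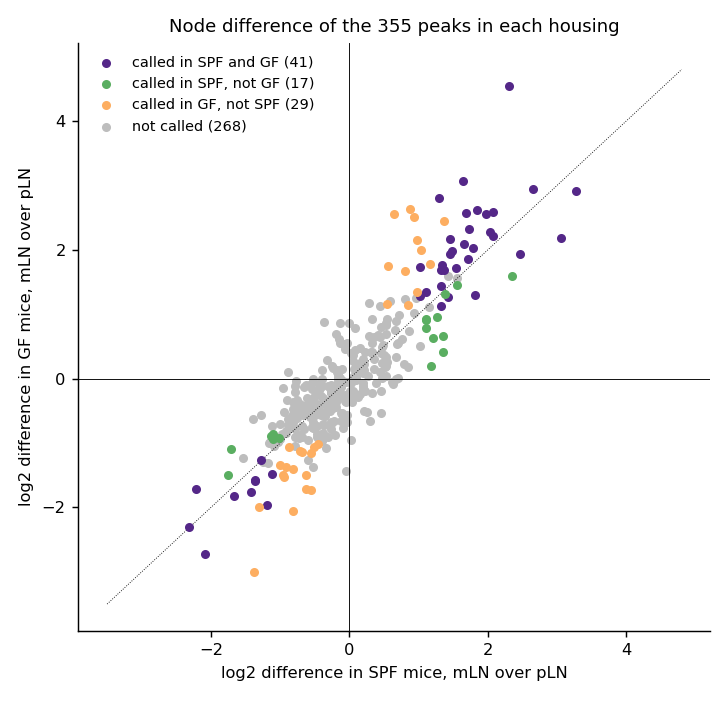
Log2 difference between nodes in GF mice (y axis, mLN-GF over pLN-GF) against that in SPF mice (x axis, mLN-SPF over pLN-SPF) for the 355 peaks, coloured by the housing in which a peak was called, with the dotted line marking equal differences. The 41 peaks called in both housings, the 17 called in SPF and the 29 called in GF mice lie in the upper right and lower left, and the point near 4.55 on the y axis is the intronic Sema3e peak with 0 reads in pLN-GF.

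Among the 29 DARs of GF mice that were not DARs in SPF mice, an intronic Slit3 peak 140 kb downstream had the smallest adjusted p. It measured 57.1, 44.5 and 58.6 RPKM in mLN-GF, against 11.4 and 10.9 RPKM in pLN-GF (2.15 ± 0.31, adjusted p = 0.000742), and 57.5, 24.7 and 39.8 RPKM in mLN-SPF, against 15.7, 18.8 and 23.9 RPKM in pLN-SPF (0.97, adjusted p = 0.0322). The nodes stood apart in both housings, and in SPF mice it missed the 2-fold rule. Next came Efnb2 272 kb downstream (2.51 in GF and 0.93 in SPF mice), Efna5 502 kb downstream (2.64 and 0.88), Nrp1 292 kb upstream (2.55 and 0.64), Slit2 586 kb upstream (2.00 and 1.03) and Efna5 468 kb downstream (2.45 and 1.37). Toward pLN they were Ephb1 165 kb downstream (−1.06 and −0.51) and Robo2 354 and 326 kb upstream (−3.01 and −1.38, −1.49 and −0.63), and the tenth was Nrp2 528 kb upstream in Pard3b (1.75 and 0.56). With the Slit2 peak, all 7 Slit2 peaks were DARs in at least 1 housing. None of these 10 differences was shown to differ between housings, since the interaction gave an adjusted p of 1 for each.

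Housing changed little that the test could call. Between mLN-SPF and mLN-GF 0 guidance peaks were DARs (0.00236% of all peaks were), between pLN-SPF and pLN-GF 0 were (0.00707% of all peaks), and 0 had a node difference that itself differed between housings (0% of all peaks). At an unadjusted p under 0.05 the counts were 29, 30 and 12 of 355 peaks (8.17%, 8.45% and 3.38%, against 8.11%, 6.21% and 3.5% of all peaks). With the reads recovered from RPKM and the voom method of limma, the counts of DARs were 0 as well, and with a pseudocount of 0.25 in place of 1 the count in pLN was 1. The median peak had a 95% interval of ± 0.67 around its log2 difference in mLN and ± 0.75 in pLN, before adjustment over all peaks. A call also needed 2-fold and an adjusted p under 0.05, so changes well above that size could go uncalled.

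The smallest p of the housing comparisons fell on some peaks already named and, in mLN, only on peaks not named above. The intronic Sema3e peak measured 4.75, 6.46 and 7.22 RPKM in pLN-SPF (9, 11 and 4 reads), against 0 reads in both pLN-GF libraries (limma adjusted p = 0.126). With the same floor the pLN-SPF mean was 2.25-fold higher, a ratio that leaves out the counting error of the pLN-SPF reads. The Slit3 peak 55.1 kb upstream measured 19.5, 15 and 19.7 RPKM in pLN-SPF, against 5.89 and 6.60 RPKM in pLN-GF (1.39 ± 0.25, adjusted p = 0.157). These values stood apart without passing the threshold, and the mLN values of that Slit3 peak did not (57.6, 37.0 and 44.6 RPKM in mLN-SPF, against 54.6, 51.4 and 43.9 RPKM in mLN-GF). A Plxnd1 promoter peak had 0.76 ± 0.19 between pLN-SPF and pLN-GF (adjusted p = 0.327). In mLN the smallest p were those of Epha7 224 kb upstream (−1.28 ± 0.32, adjusted p = 0.361), Nrp1 139 kb upstream (1.06 ± 0.31, adjusted p = 0.439) and Robo1 102 kb upstream (−1.44 ± 0.42, adjusted p = 0.442). For the interaction they were the same Slit3 peak (−1.51, 95% interval −2.23 to −0.79, unadjusted p = 0.000493), the Sema3e peak (unadjusted p = 0.00363) and Efnb2 272 kb downstream (−1.58, −2.71 to −0.45, unadjusted p = 0.00951), each with an adjusted p of 1.

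Other genes of the pathway were counted from lists that were not part of the 42. Of 37 further guidance ligands and receptors, 30 had a peak, and of their 121 peaks 16 were DARs higher and 8 lower in mLN-SPF (13.2% and 6.61%, against 6.49% and 4.27% of all peaks, or 8.9% and 5.96% outside promoters). Sema3c, a secreted semaphorin on the same chromosome as Sema3d and Sema3e, had 4 called peaks higher in mLN-SPF, the largest 59.6 kb downstream at 55.8 ± 13.4 RPKM in mLN-SPF and 14.7 ± 4.74 RPKM in pLN-SPF (1.88 ± 0.41, adjusted p = 0.00994). Sema4f also had 4 higher, the largest by adjusted p 63.1 kb downstream at 46.6 ± 10.6 and 14.3 ± 1.58 RPKM (1.61 ± 0.25, adjusted p = 0.00244). Flrt2, whose product binds Unc5 receptors, had calls in both directions, such as 268 kb downstream (−1.68 ± 0.29) and 607 kb upstream (1.60 ± 0.28). Among the 31 intracellular effectors, which pass receptor signals to the cytoskeleton, 219 peaks held 25 DARs higher and 13 lower in mLN-SPF (11.4% and 5.94%) and 43 and 9 in mLN-GF (19.6% and 4.11%, against 8.55% and 4.62% of all peaks). Fyn, a Src family kinase, had 4 called peaks, each higher in mLN-SPF, among them one 60.8 kb upstream at 17.5 ± 5.51 RPKM in mLN-SPF and 1.90 ± 1.66 RPKM in pLN-SPF (2.87 ± 0.61, adjusted p = 0.00889).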

How the data were processed

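ATAC-seq libraries of sorted lymph node SCs were aligned by the authors with STAR 2.5.3a to GRCm38 (mm10), keeping unique hits, and duplicates were removed with Picard. The authors called broad peaks with MACS2 in each library, merged those that overlapped, and took size factors from DESeq2 1.22. Whether reads were shifted for the transposase cut was not given in the sources used here. The deposited values are RPKM per peak and library, beside columns of the authors' own log2 fold changes and adjusted p-values from their comparisons, which were not used. Whole reads were recovered from the RPKM for 100% of values (tolerance 0.02 reads). One column of values that belongs to no single library was left out, and 10 repeated entries were merged.

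Peaks were assigned to the nearest protein-coding TSS (GENCODE vM21), ignoring the gene names in the table. Differences were tested with limma 3.58.1 (R 4.3.3) on log2(RPKM + 1), a scale that understates changes at low values, in 1 fit of the 4 groups with a mean-dependent prior and Benjamini-Hochberg adjustment over all 42424 peaks, with a threshold of 0.05 and 2-fold. The steps were tested on simulated data. Named peaks were up to 2 DARs per gene and direction in SPF mice by adjusted p, the strongest promoter peak of each gene, the 10 leading DARs of GF mice and the 3 smallest p of each housing comparison; the remaining SPF DARs were added so that all 58 were named. The members and lists were chosen with earlier results of these data known. Some genes of the marker lists are not reported here. Promoter sequences were matched by symbol for 34 of the 42 genes in RefSeq (GRCm38.p6). Alternatives covered the pseudocount, a filter on low values, quantile normalization, the moderation, voom on recovered reads, the libraries in the fit, a replicate block, the TSS set, the fold threshold and each library left out. Counting error and the number of libraries limit the precision.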

Additional observations from a re-analysis of the deposited data

How the results depend on the processing

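None of the 58 guidance DARs of SPF mice or the 70 of GF mice changed direction in any of 21 alternative fits, and 21 and 16 of them were called in every one. With libraries left out in turn, the guidance DARs numbered 28 to 71 in SPF mice (58 with every library), 26 to 77 in GF mice (70) and 74 to 92 averaged over housing (86). The lowest SPF counts came without pLN-SPF replicate 2 (28), pLN-SPF replicate 1 (31) and mLN-SPF replicate 3 (33, the library with the fewest reads), and the lowest GF counts without pLN-GF replicate 3 (26), pLN-GF replicate 1 (30) and mLN-GF replicate 3 (44). The averaged count was 155 with no fold threshold. The housing comparison in pLN gave 1 DAR in place of 0 with a pseudocount of 0.25. Without both mLN libraries of replicate 2 the counts were 72 in SPF mice, 82 in GF mice and 101 averaged. Where leaving out a library left pLN-GF with 1, that library was taken to vary like the other groups. With voom on the recovered reads the counts of called guidance peaks were 73 in SPF mice and 77 or 79 in GF mice, scaled by the total or by the median ratio. Whether replicate numbers pair the libraries was not settled. Deviations of mLN-SPF and pLN-SPF libraries of the same number had correlations of 0.028, 0.271 and 0.229. Those of different numbers had correlations of −0.26 to 0.101. A fit with the replicate block gave 68 DARs in SPF mice, 84 in GF mice and 91 averaged, and 0 for both housing comparisons and the interaction. The cause of these changes was not tested. Scaling by TMM was not run. With 26 to 83 reads in the median guidance peak, small differences at weak peaks were not detectable.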

Other observations

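Further calls stood at genes of the pathway outside the 42. Among the intracellular effectors, Mical2, an actin-oxidizing enzyme downstream of plexins, was more open 21.1 kb upstream, at 27.9 RPKM in mLN-SPF and 5.84 RPKM in pLN-SPF on average (log2 difference 2.10 ± 0.30, limma adjusted p = 0.00192). Rnd3, a small GTPase that antagonizes RhoA, had a peak 316 kb downstream at 40.5 RPKM in mLN-SPF and 7.69 RPKM in pLN-SPF (2.30 ± 0.32, adjusted p = 0.00192). Srgap3, of the family of Slit-Robo GTPase-activating proteins, went the other way 33.6 kb downstream, at 3.85 RPKM in mLN-SPF and 30.5 RPKM in pLN-SPF (−2.74 ± 0.39, adjusted p = 0.00192). These 3 peaks had the smallest adjusted p of the effector list and were chosen after their values were seen. Each is 1 of several peaks of its gene, and what they act on was not tested.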
